A study of Rattus norvegicus with 6 samples.

Results

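The circadian clock genes Clock, Arntl, Per1, Per2, Per3, Cry1, Cry2, Nr1d1, Nr1d2 and Dbp were examined in RBL-2H3 cells given the PPARγ agonist PIO. They were chosen by symbol, and all 10 were found among the 22601 genes of the deposited table, each with 1 row. Arntl is the gene of the protein BMAL1 and is listed as Bmal1 in RefSeq. The RBL-2H3 line, labelled WT, comes from a rat basophilic leukemia and stands in for mast cells and basophils in the laboratory. In 3 libraries the cells had received PIO at 10 µM for 6 h, and in the 3 control libraries they had received none. The labels record neither a vehicle nor a time for the controls, and an effect of either cannot be told apart from one of PIO. They also do not say whether replicates were separate cultures, so a p-value reflects the spread among 6 libraries whose differences may be technical. In bulk RNA, fewer cells that express a gene and less RNA per cell cannot be told apart. Neither the hour of harvest nor a synchronization of the cultures is recorded here, and there is 1 time point, so the values give levels and not rhythms.

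The mammalian clock is a transcriptional feedback loop. CLOCK and BMAL1, the positive arm, bind E-box elements as a pair and activate the Per, Cry, Nr1d and Dbp genes. PER and CRY proteins form the main negative arm and block CLOCK and BMAL1, while the REV-ERB receptors encoded by Nr1d1 and Nr1d2 repress the BMAL1 gene through ROR elements. DBP carries the rhythm to further genes through D-box elements, and in mouse mast cells the clock is known to set daily variation in the IgE response. The loop also meets the receptor studied here: in rat fat tissue Nr1d1 is a known PPARγ target, and in mouse blood vessels the BMAL1 gene is.

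RefSeq promoter windows of the rat assembly GRCr8, which run from 250 bases before to 50 bases after an annotated start, were available for 9 of the 10 genes (11 windows); Cry1 is named only. They were searched on both strands for the E-box CACGTG, its variant CACGTT, the D-box (TTATGTAA or TTACGTAA), the element AGGTCA bound by REV-ERB and other nuclear receptors, and the PPAR response element, which is 2 copies of AGGTCA with 1 base between them and so contains AGGTCA. These motifs were found in 6.42%, 4.83%, 1.01%, 16.2% and 0.0538% of all 33469 windows. Among the clock genes 6 windows of 5 genes held a motif. The share of all windows with any of these motifs was not computed, so that count cannot be called high or low. None of the 11 windows held the PPAR response element. That element was searched in exact letters only and lay in 18 of all 33469 windows. Its absence from 11 windows therefore cannot show that these genes lack a PPARγ site. The sequences of 3 windows are shown because they hold the elements through which the loop is known to run, with the motifs in capitals, 5′ to 3′ on the strand of the gene. Per2 (chr9:99496944-99497243, minus strand) has a D-box 192 bases and the E-box variant 62 bases before its start. Nr1d1 (chr10:84229405-84229704, minus strand) has an E-box 191 bases before the second of its annotated starts. Arntl (chr1:176766078-176766377, plus strand) has AGGTCA 15 bases before its start. A match is a description of letters and not a measured site, and no binding was measured in these libraries.
Per2: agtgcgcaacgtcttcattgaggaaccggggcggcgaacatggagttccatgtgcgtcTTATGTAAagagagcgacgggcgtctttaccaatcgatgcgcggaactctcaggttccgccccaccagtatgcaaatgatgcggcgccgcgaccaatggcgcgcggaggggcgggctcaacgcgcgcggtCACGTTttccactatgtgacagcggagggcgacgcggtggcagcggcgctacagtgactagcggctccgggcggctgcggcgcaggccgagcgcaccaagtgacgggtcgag
Nr1d1: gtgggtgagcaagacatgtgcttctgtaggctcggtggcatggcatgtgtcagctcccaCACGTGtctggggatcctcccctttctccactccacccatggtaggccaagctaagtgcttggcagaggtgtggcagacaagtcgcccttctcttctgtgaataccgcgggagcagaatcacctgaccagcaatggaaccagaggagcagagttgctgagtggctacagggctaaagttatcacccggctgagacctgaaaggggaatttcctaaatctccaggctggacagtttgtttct
Arntl: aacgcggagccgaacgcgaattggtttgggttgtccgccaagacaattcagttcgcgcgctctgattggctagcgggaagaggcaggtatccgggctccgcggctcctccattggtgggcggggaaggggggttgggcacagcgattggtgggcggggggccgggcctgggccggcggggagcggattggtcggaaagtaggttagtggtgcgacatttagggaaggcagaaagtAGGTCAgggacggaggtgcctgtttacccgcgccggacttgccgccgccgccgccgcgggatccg

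The library totals behind the values were 14048202 to 14322720 reads with PIO and 14105533 to 15084729 reads in control. All 10 markers of mast cells and basophils were detected, with summed levels of 4630 to 4780 FPKM with PIO and 4600 to 4810 FPKM in control. The 5 macrophage markers summed to 1.77 to 2.08 FPKM with PIO and 1.68 to 1.95 FPKM in control, with Marco and C1qa at 0. The T and B cell markers summed to 0.844 to 1.42 FPKM with PIO and 1.37 to 1.58 FPKM in control, with Cd3d at 0. Neutrophil markers (Mpo, Elane and S100a8 at 0) and fibroblast and adipocyte markers (Fabp4 at 0) stayed at or below 0.217 FPKM in sum. Control replicate 3 was the library least like the others, by a small margin in correlation. Its mean correlation with them, taken across genes on the log2 scale, was 0.9930, against 0.9939 to 0.9948 for the rest. The stress response gene Atf4 was at 243, 240 and 255 FPKM with PIO and at 279, 277 and 617 FPKM in control replicates 1 to 3. Many of the log2 fold changes are therefore also given without this library, while sums and ratios of genes are given only with it.

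No clock gene passed the test for a change with PIO. Of the 10 genes, all of which were abundant enough to test, none rose and none fell past an adjusted p of 0.05 (limma over 10410 genes, Benjamini-Hochberg adjustment), 5 were nominally higher and 5 lower, and none had an unadjusted p under 0.05. Limma-voom on the reads recovered from the FPKM also called 0 of the 10. Over all genes tested, 4 (0.0384%) were called, 4 higher and 0 lower with PIO (2 higher and 2 lower without control replicate 3, 3 and 1 without control replicate 2), and 1302 (12.5%) had an unadjusted p under 0.05. PIO and control values overlapped for all 10 clock genes, whereas 18.5% of all genes tested did not overlap between the groups. The median log2 fold change over the 10 clock genes was -0.006, beside 0.009 over all genes tested. The limma adjusted p of the clock genes lay between 0.589 and 0.957. The 95% intervals of the fold change, each for 1 gene and unadjusted, together reached from 0.72 to 1.3 times the control level, so larger changes lay outside them. A p that misses the threshold does not show that the levels were the same.

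**Figure D1:**
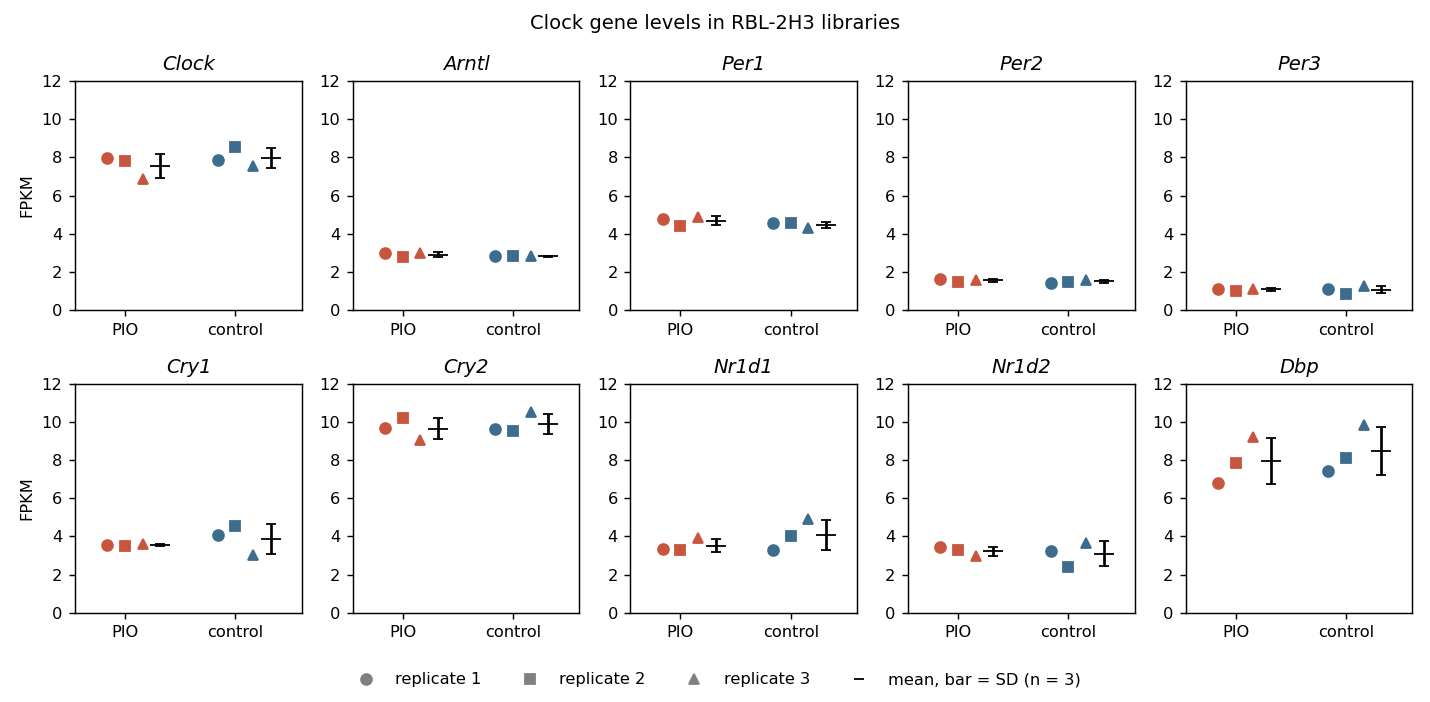
Level of each clock gene in FPKM (y axis, from 0) in the 3 PIO and the 3 control libraries; symbols mark the replicate number, and the bar beside each group is the mean with its SD (n = 3). The groups overlap in every panel, Cry2, Dbp and Clock stand highest, and Per2 and Per3 lowest.

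**Figure D2:**
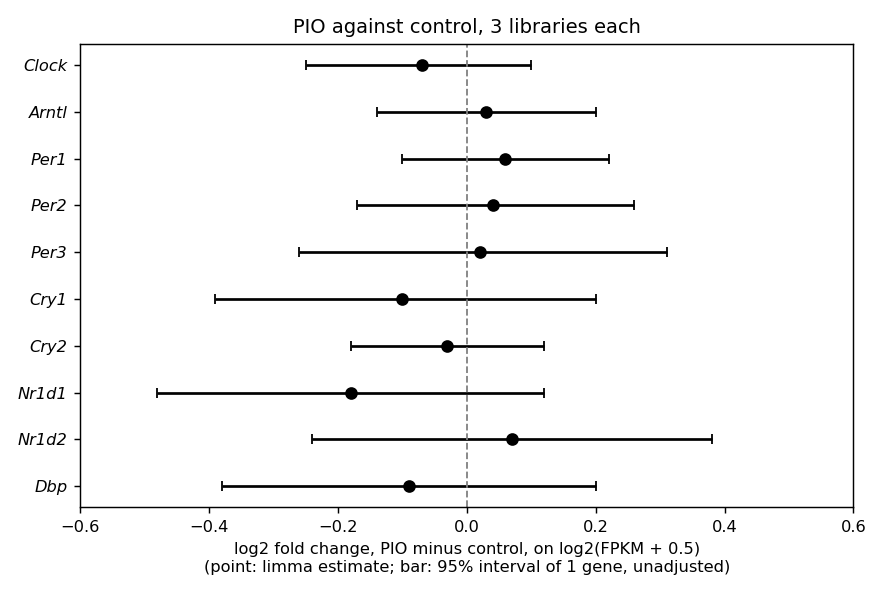
Log2 fold change of each clock gene, PIO minus control, on the log2(FPKM + 0.5) scale (x axis), with the limma estimate as a point and its unadjusted 95% interval as a bar. Every interval includes 0, and Nr1d1 lies farthest from it at -0.18.

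In the positive arm Clock was the more abundant partner. Clock, which encodes the bHLH-PAS protein that pairs with BMAL1, was at 7.99, 7.83 and 6.85 FPKM in PIO replicates 1 to 3 and at 7.84, 8.56 and 7.53 FPKM in control replicates 1 to 3. PIO replicate 3 was the lowest of the 6 libraries and control replicate 2 the highest. Arntl, which encodes the partner BMAL1, was at 2.98, 2.79 and 2.97 FPKM with PIO and at 2.86, 2.83 and 2.81 FPKM in control. It was the steadiest of the 10 genes, with a range of 0.08 on the log2(FPKM + 0.5) scale over the 6 libraries. Within the groups the variance of its reads, 126 to 136 per library, was 0.09 times what counting error alone gives on average. Its rank as steadiest therefore describes these libraries and not a trait of the gene. The log2 fold change was -0.07 for Clock (SE 0.08, limma adjusted p = 0.702) and 0.03 for Arntl (SE 0.07, limma adjusted p = 0.868). Single libraries moved both: Clock ran from -0.114 without PIO replicate 1 to -0.0097 without PIO replicate 3, and Arntl from 0.0196 without PIO replicate 1 to 0.0601 without PIO replicate 2. Per unit of length Clock exceeded Arntl 2.30 to 2.80 times with PIO and 2.68 to 3.02 times in control. The 95% interval for Arntl, a gene that PPARγ is known to act on in mouse vessels, was 0.91 to 1.15 as a fold of FPKM + 0.5.

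Among the Per genes, which encode the rhythmic repressors that carry CRY into the nucleus, Per1 stood above Per2 and Per2 above Per3 in all 6 libraries. Per1 was at 4.77, 4.43 and 4.88 FPKM in PIO replicates 1 to 3 and at 4.56, 4.56 and 4.30 FPKM in control. Per2, whose D-box and E-box variant are printed above, was at 1.64, 1.46 and 1.59 FPKM with PIO and at 1.41, 1.5 and 1.6 FPKM in control. Per3, which in mouse is not needed for the basic rhythm, was at 1.12, 1.02 and 1.13 FPKM with PIO and at 1.11, 0.863 and 1.25 FPKM in control. The highest and the lowest Per3 values were both control libraries, so its PIO values lay inside the control range. The log2 fold changes were 0.06 for Per1 (SE 0.07), 0.04 for Per2 (SE 0.09) and 0.02 for Per3 (SE 0.12), with limma adjusted p of 0.730, 0.867 and 0.957. With 1 library left out, Per1 ran from 0.0353 (without PIO replicate 3 or control replicate 3) to 0.0978 (without PIO replicate 2). Per2 ran from 0.0102 (without control replicate 1) to 0.0786 (without PIO replicate 2). Per3 was -0.0785 without control replicate 2, which held its lowest value, and 0.104 without control replicate 3. The Per1 to Per2 ratio averaged 3.00 ± 0.0804 with PIO and 2.99 ± 0.276 in control (SD, n = 3 each).

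The Cry genes encode the cryptochromes, the strongest direct repressors of CLOCK and BMAL1. Cry2 had the highest mean level of all 10 genes and stood above Dbp, the next, in 5 of 6 libraries. Cry2 was at 9.69, 10.2 and 9.06 FPKM in PIO replicates 1 to 3 and at 9.64, 9.54 and 10.5 FPKM in control. Cry1 was at 3.55, 3.49 and 3.59 FPKM with PIO and at 4.07, 4.53 and 3.01 FPKM in control. The PIO libraries were thus close together in Cry1, while control replicate 3 lay below and control replicates 1 and 2 above all of them. The log2 fold change was -0.10 for Cry1 (SE 0.13, limma adjusted p = 0.770) and -0.03 for Cry2 (SE 0.07, limma adjusted p = 0.846). Cry1 moved with single libraries: it was -0.246 without control replicate 3 (limma adjusted p = 0.371) and 0.0131 without control replicate 2. Cry2 was 0.0068 without control replicate 3, 0.0087 without PIO replicate 3 and -0.0734 without PIO replicate 2. Per unit of length Cry2 exceeded Cry1 by 2.52 to 2.93 times with PIO and by 2.11 to 3.49 times in control.

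Nr1d1 and Nr1d2 encode REV-ERBα and REV-ERBβ, heme-binding nuclear receptors that repress the BMAL1 gene. Nr1d1 was at 3.32, 3.31 and 3.90 FPKM in PIO replicates 1 to 3 and at 3.30, 4.01 and 4.91 FPKM in control. Replicate 3 was the highest library in each group, and the lowest values of the groups were nearly the same. The log2 fold change of Nr1d1 was -0.18 (SE 0.13, limma adjusted p = 0.589), the farthest from 0 among the clock genes. Its 95% interval in fold was 0.72 to 1.09, and the estimate was -0.0481 without control replicate 3 and -0.302 without control replicate 1. Nr1d1 overlaps Thra in the rat annotation, and the use of strand in the counting was not given in the sources used here. The same limit touches Clock, Per2 and Cry2, which overlap lncRNA genes, and Cry1, which overlaps the protein-coding gene LOC120093541. Those neighbours were not analysed here. Thra was lower than Nr1d1, at 1.66 to 1.70 FPKM with PIO and 1.53 to 1.85 FPKM in control.

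Nr1d2 was at 3.44, 3.27 and 2.96 FPKM in PIO replicates 1 to 3 and at 3.25, 2.38 and 3.64 FPKM in control. As in Per3, the control libraries held both the lowest and the highest value. The log2 fold change was 0.07 (SE 0.13, limma adjusted p = 0.854), and it was -0.0835 without control replicate 2 and 0.177 without control replicate 3. The Nr1d1 to Nr1d2 ratio averaged 1.10 ± 0.192 with PIO and 1.35 ± 0.332 in control (SD, n = 3 each), and its ranges overlapped.

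Dbp, which encodes a PAR bZIP activator and is a textbook direct target of CLOCK and BMAL1, was at 6.78, 7.87 and 9.20 FPKM in PIO replicates 1 to 3 and at 7.43, 8.11 and 9.86 FPKM in control. In both groups replicate 3 was the highest library and replicate 1 the lowest, and the ranges of the groups overlapped. The log2 fold change was -0.09 (SE 0.13, limma adjusted p = 0.790), and it turned to 0.0214 without control replicate 3 and to 0.0152 without PIO replicate 1, and was -0.192 without PIO replicate 3. Counted in reads, Dbp had 158, 187 and 215 with PIO and 186, 190 and 242 in control.

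In order of mean level over the 6 libraries the genes ran Cry2 (9.77 FPKM), Dbp (8.21), Clock (7.76), Per1 (4.58), Nr1d1 (3.79), Cry1 (3.71), Nr1d2 (3.16), Arntl (2.88), Per2 (1.53) and Per3 (1.08). Of the 9 pairs of neighbours in this order, 6 overlapped in their ranges over the libraries. Clear steps, with the higher gene above the lower in 6 of 6 libraries, were those between Clock and Per1, Arntl and Per2, and Per2 and Per3, although the ranges of Clock, Dbp and Cry2 ran into each other. These are low to middling levels: Cry2 stood above 40.4% and Per3 above 5.9% of the genes tested. Summed over the genes, the negative arm of Per, Cry and Nr1d genes held 27.5, 27.2 and 27.1 FPKM with PIO and 27.3, 27.4 and 29.2 FPKM in control. The positive arm of Clock and Arntl held 11, 10.6 and 9.82 FPKM with PIO and 10.7, 11.4 and 10.3 FPKM in control. The ratio of the negative to the positive arm was 2.61 ± 0.131 with PIO and 2.59 ± 0.212 in control (SD, n = 3 each), and the groups overlapped. The negative arm sums more genes than the positive arm, so this ratio does not compare levels per gene.

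The 10 genes differed in how far their levels ranged over the 6 libraries on the log2(FPKM + 0.5) scale. The range was 0.52 for Nr1d2 and Cry1 and 0.51 for Dbp and Nr1d1. It was 0.36 for Per3, 0.3 for Clock and 0.2 for Cry2, and 0.16 for Per1 and Per2. The added 0.5 narrows the ranges of low genes most, such as Per3, at 0.863 to 1.25 FPKM. The order of the ranges therefore depends in part on level. Counting error is part of these ranges. Within the groups, the variance of the reads was at least 3 times what counting error gives on average for 5 genes (Clock, Cry1, Nr1d1, Nr1d2 and Dbp). For the other 5 the figure was below 2 times. Its median was 1.85 over all genes tested and 1.54 over the 5892 tested genes in the read range of the clock genes. The share of all genes at 3 times or more is not given here. Control replicate 3 was the highest control library for 6 of the genes (Per2, Per3, Cry2, Nr1d1, Nr1d2 and Dbp) and the lowest for the other 4, while 73.5% of all genes tested had that library at an end of the control range. For any gene all but 1 of the control libraries stand at an end, so a high share is the rule. Dbp, Nr1d1 and Per3 were highest in replicate 3 of both groups, 3 of 10 beside 14.1% of all genes tested, and Clock was lowest in it in both groups, 1 of 10 beside 15.3%. The part of control replicate 3, with its high Atf4, in these patterns was not tested. These shares were looked up after the values had been seen.

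**Figure D3:**
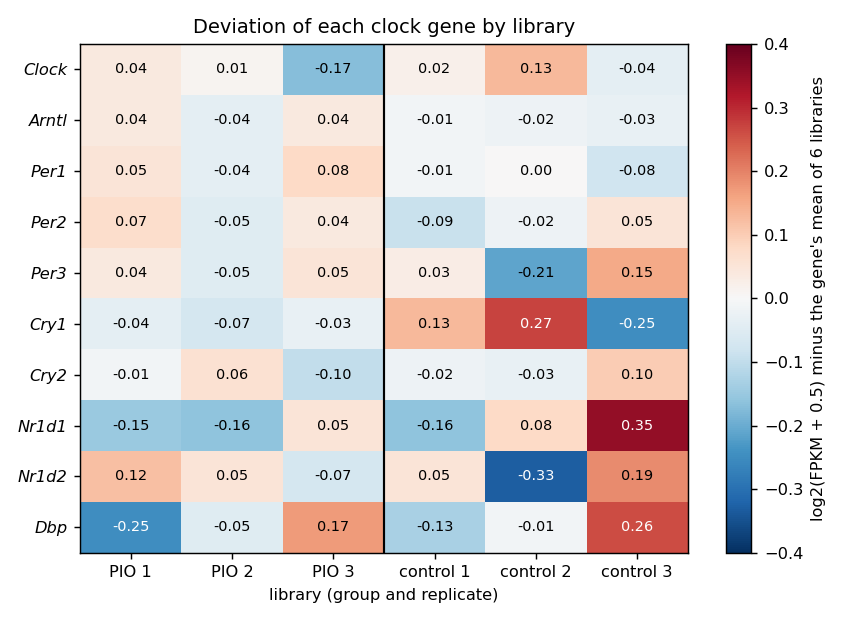
Deviation of each clock gene (rows) from its own mean over the 6 libraries (columns, PIO left of control), on the log2(FPKM + 0.5) scale and printed in each cell. Nr1d1 and Dbp reach 0.35 and 0.26 in control replicate 3, Cry1 is at -0.25 there, and Arntl stays within 0.04 of its mean everywhere.

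Nr1d2 was taken for a comparison of patterns as the gene with the widest log2 range, although Cry1 had the same rounded range (0.52 over the 6 libraries) and Dbp and Nr1d1 nearly so (0.51). The tested genes with an established symbol whose levels, each relative to its own mean, lay near it included C1rl and Rpp40. Their root mean square differences from Nr1d2 were 0.041 and 0.059 on the log2 scale over 6 libraries. Both shared the low value of control replicate 2, where C1rl was at 2.61 FPKM, beside 3.39, 3.53 and 3.08 FPKM in PIO replicates 1 to 3 and 3.45 and 3.86 FPKM in control replicates 1 and 3. With 6 libraries and 10410 genes, likeness of this size is a description only.

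Other genes of the clock machinery were taken from lists of 50 genes. A row was found for 49 of them, and 39 were abundant enough to test. None of the 39 rose or fell past the threshold (limma adjusted p 0.280 to 0.995), and 15 were nominally higher and 24 lower. An unadjusted limma p under 0.05 was found for 7 of the 39, beside 12.5% of all genes tested. Limma-voom called 0 of the 39. PIO and control did not overlap for 11 of the 39, beside 18.5% of all genes tested. The median log2 fold change was -0.027, beside 0.009 over all genes tested.

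The alternative partners of the positive arm were at or near 0. Arntl2, which encodes the BMAL1 relative BMAL2, was listed at 0 in all 6 libraries, and Npas2, which encodes a CLOCK relative, had 1 read in 1 PIO library and 0 in the others. Rora and Rorb encode receptors that activate the BMAL1 gene through the elements that REV-ERB occupies. Rora had 2, 1 and 2 reads with PIO and 2 in each control library, below a floor of 3 reads, and Rorb was listed at 0 in all 6 libraries. A listed 0 need not mean an absent transcript, since Polr2h, a subunit shared by the nuclear RNA polymerases, was also listed at 0 in all 6.

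Further repressors ranged more widely than the core genes. Bhlhe40, which encodes the E-box repressor DEC1, was at 175 ± 3.69 FPKM with PIO and 180 ± 6.69 FPKM in control (SD, n = 3 each; log2 fold change -0.04, limma adjusted p = 0.655). Leaving out control replicate 1 gave -0.0729 and leaving out control replicate 3 gave -0.0239. Bhlhe40 stood far above any core clock gene, whereas its relative Bhlhe41 had 1 read in 1 control library and 0 elsewhere. Timeless, known for its part in DNA replication, was at 42.4 ± 0.782 FPKM with PIO and 42.0 ± 1.65 FPKM in control (limma adjusted p = 0.903), and the sign of its log2 fold change of 0.01 turned under TPM scaling (-0.015). Of this list of 4 genes 3 were tested, and 0 rose or fell. Among the D-box factors Tef, an activator related to Dbp, was at 21.1 ± 0.397 FPKM with PIO and 20.2 ± 0.25 FPKM in control (log2 fold change 0.06, limma adjusted p = 0.549). Nfil3, the repressor that competes with them, was at 15.3 ± 0.915 FPKM with PIO and 15.7 ± 2.59 FPKM in control (-0.03, limma adjusted p = 0.927; 0.1 without control replicate 3 and 0.0209 without PIO replicate 1). Hlf, the third activator, had 5, 11 and 7 reads with PIO and 4, 4 and 3 in control and was too low to test.

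**Figure D4:**
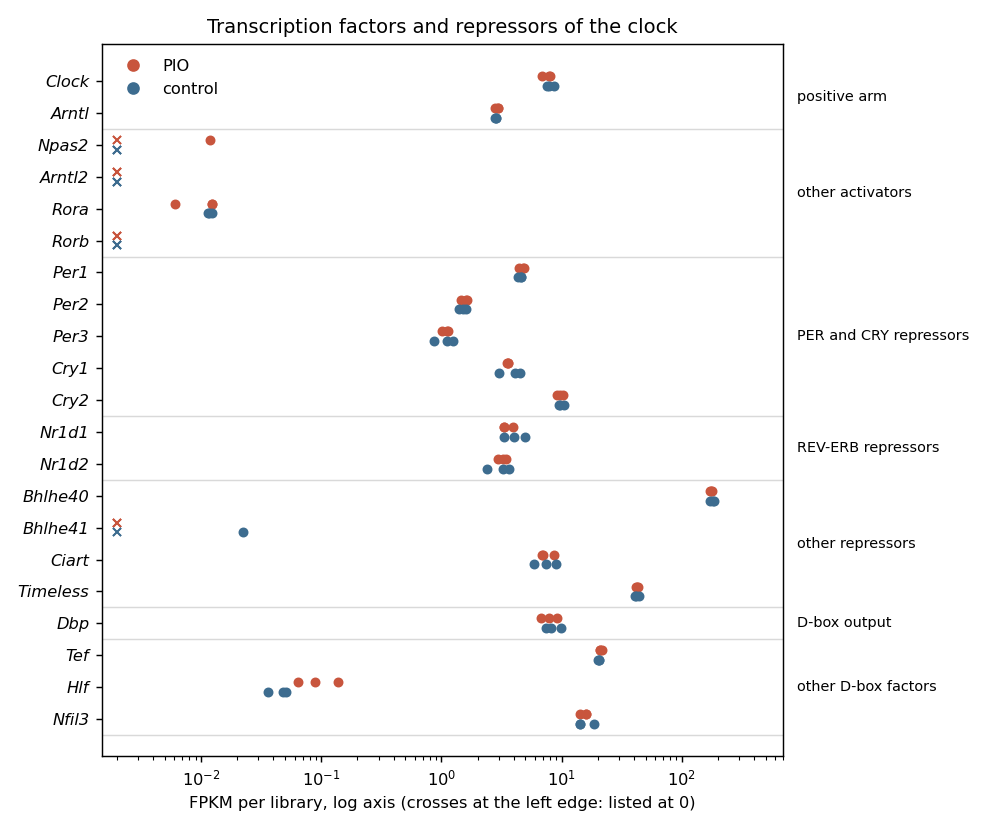
FPKM per library on a log axis for the transcription factors and repressors of the clock, grouped by role, with PIO above control in each row and crosses for values listed at 0. The core genes lie between 0.863 and 10.5 FPKM, Bhlhe40 lies at 170 to 184 FPKM, and Npas2, Arntl2, Rora, Rorb and Bhlhe41 lie at or near 0.

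Genes that act on clock proteins after translation did not pass the test either. Of 11 tested kinase and phosphatase genes 5 were nominally lower and 6 higher (median log2 fold change 0.005). Csnk1d, which encodes the casein kinase that marks PER for decay, was at 64.1 ± 0.513 FPKM with PIO and 60.0 ± 0.908 FPKM in control (SD, n = 3 each; log2 fold change 0.09, limma adjusted p = 0.343). Ppp1cb, a catalytic subunit of protein phosphatase 1, was at 47.7 ± 1.88 FPKM with PIO and 52.3 ± 1.35 FPKM in control (-0.13, limma adjusted p = 0.339). Neither overlapped between the groups, as 18.5% of all genes tested did not, and both were named because their p was the smallest of the list. Of 5 tested ubiquitin ligase and protease genes 2 were nominally higher and 3 lower. Fbxw11, which encodes a subunit of a ligase that marks PER for decay, was at 14.0 ± 0.625 FPKM with PIO and 14.3 ± 0.441 FPKM in control (-0.03, limma adjusted p = 0.834; 0.00137 without PIO replicate 2). The ligase gene Siah2 was at 13.9 ± 1.08 FPKM with PIO and 16.0 ± 2.57 FPKM in control (-0.19, limma adjusted p = 0.496; -0.0641 without control replicate 3, its highest library).

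Cofactors of the clock complexes were nominally lower in 9 of 11 cases, and none passed. Their median log2 fold change was -0.044, beside 0.009 over all genes tested. The share of all tested genes that were nominally lower was not computed. Nampt, which encodes the NAD salvage enzyme that feeds SIRT1, was at 39.1 ± 1.24 FPKM with PIO and 44.2 ± 1.28 FPKM in control (SD, n = 3 each, log2 fold change -0.18, limma adjusted p = 0.280). The estimate was -0.16 without control replicate 3. Its groups did not overlap, which held for 3 of the 11 cofactors, beside 18.5% of all genes tested. Ep300, which encodes the acetyltransferase p300, was at 14.0 ± 1.25 FPKM with PIO and 15.7 ± 0.76 FPKM in control (-0.16, limma adjusted p = 0.414, and -0.123 without control replicate 3). Among 7 tested genes of inputs to the Per genes, 5 did not overlap between the groups, beside 18.5% of all genes tested, and none passed the test. Of these Klf9, Nr3c1 and Creb1 were lower and Hsf1 and Klf10 higher, the last 3 being named after their values were seen. Klf9, a glucocorticoid-responsive repressor, was at 1.11, 0.724 and 0.736 FPKM in PIO replicates 1 to 3 and at 1.14, 1.58 and 1.65 FPKM in control (log2 fold change -0.53, SE 0.16, limma adjusted p = 0.308). Without control replicate 3 its log2 fold change was -0.458. With 0.1 or 1 added to the FPKM in place of 0.5 it was -0.709 or -0.404, and with limma-voom -0.763. Klf9 was thin, with 26 to 39 reads with PIO and 43 to 61 in control. Nr3c1, the glucocorticoid receptor gene, was at 24.3 ± 0.94 FPKM with PIO and 27.9 ± 2.29 FPKM in control (-0.19, limma adjusted p = 0.340). The Nr3c1 estimate was -0.129 without control replicate 3.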

How the data were processed

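RNA-seq of 3 PIO and 3 control libraries was analysed from FPKM values made by the authors (fragments scaled to gene length and library size), as deposited. Libraries were made with a stranded mRNA kit, per the labels' protocols. The submitters' processing notes list the aligners HISAT2 2.2.1.0 and BWA 0.7.5a, the counters HTSeq and Cufflinks, and Trimmomatic 0.36, SAMtools 1.3.1, FastQC 0.11.5 and DESeq, with no roles or order for these libraries. They give the human build GRCh38, while the deposited gene names are rat names. The true build is unclear, and printed coordinates are those of RefSeq GRCr8.

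FPKM were whole multiples of 1 read, so reads were recovered for 15428 of 15429 genes above 0 (tolerance 0.0001 of a read). They give the depth; without molecular identifiers, floors cover counting error only. Genes averaging 0.5 FPKM or more were tested on log2(FPKM + 0.5), which understates changes of low genes, with limma 3.58.1 in R 4.3.3 (group only, variance trend, two-sided, Benjamini-Hochberg adjustment over 10410 genes). The code was tested on simulated data. An exact permutation test of 3 against 3 cannot go below p = 0.1 and was not used. Tables used Python 3.11.15, numpy 2.4.6 and pandas 2.3.3, figures matplotlib 3.10.9.

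The members and lists were chosen with earlier results of these data known. Some genes of the lists and of the naming rule are not reported here. Named beside the members are the 2 genes with the smallest p of each other list and, of the 3 nearest to the most variable member, those reported. Alternatives tried were a pseudocount of 0.1 or 1, no filter, a minimum mean of 1 FPKM, median-of-ratios, TPM and quantile scaling, no variance trend, a robust fit, the replicate number as a block and each library left out. Limma-voom on recovered reads was added after seeing the data, standing in for a listed count test, which needs deposited counts.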

Additional observations from a re-analysis of the deposited data

How the results depend on the processing

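No clock gene was called under any of the 17 alternatives, and of 170 values of the 10 genes 163 kept their sign. The 7 that did not each left out 1 library. With a library left out, the log2 fold change ran from -0.192 to 0.0214 for Dbp, from -0.0734 to 0.0087 for Cry2, from -0.0785 to 0.104 for Per3, from -0.246 to 0.0131 for Cry1 and from -0.0835 to 0.177 for Nr1d2. Among 12 other named clock genes 197 of 204 values kept their sign and none was called; those that turned were Timeless (-0.015 under TPM scaling, -4.99e-05 under quantile normalization, -0.00699 to 0.0455 with a library left out), Nfil3 (-0.0946 to 0.1 with a library left out) and Fbxw11 (-0.0609 to 0.00137 with a library left out). The number of genes changed over the whole table was 4, and it was 1 without a filter, 2 without a variance trend, 7 with a robust fit, 7 with limma-voom on recovered reads and 3 to 4 with a library left out; the cause was not tested. Of the 7 calls in each of the robust fit and limma-voom, 6 were higher and 1 lower with PIO. TPM scaling lowered the estimates, to 0.00945 for Arntl, 0.00368 for Per3, -0.0634 for Cry2 and -0.071 for Bhlhe40. It also moved the median over all genes tested, from 0.009 to -0.019, so the shift was not particular to the clock genes. The median over the clock genes, -0.006, ran from -0.042 to 0.025 with a library left out. Deviations of same-numbered libraries correlated at -0.068, 0.028 and 0.078, and those of differently numbered libraries at -0.094 to 0.082. These values cannot show whether same-numbered libraries shared a culture or day. With the replicate number as a block, 3 genes and no clock gene were called. The listed count test on recovered reads was not run.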
